A study of Mus musculus with 6 samples.

Results

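The 76 genes of mouse islets named Mrpl or Mrps followed by a number and an optional letter were examined, out of 22923 genes in the count table. They encode proteins of the mitochondrial ribosome, 47 (Mrpl) named for its large subunit and 29 (Mrps) for its small subunit. Members were found by gene name alone, including names that share an entry with another gene, and all 76 had enough counts to be tested. RNA was sequenced from pancreatic islets of chow-fed mice in 3 libraries labelled FFA2 global KO and 3 libraries labelled WT. The mice were on the C57BL/6J background by the study's methods. Islets of 2 mice were pooled per library, and ages were 10 to 12 weeks by the labels. The study's supplement instead describes its islet RNA-seq as from male mice of an older age, and the labels' age is used here. FFA2, encoded by Ffar2, is a G protein-coupled receptor for short-chain fatty acids, and the comparison asked how the islet transcriptome differs where the receptor is deleted in all tissues. The deletion is therefore not restricted to islets or to a cell type, and isolated islets hold beta, alpha and delta cells together with endothelial cells, macrophages and remaining exocrine cells.

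The mitochondrial ribosome translates the few proteins encoded by mitochondrial DNA, all of which are membrane subunits of the respiratory chain and ATP synthase. Its own proteins are encoded in the nucleus, made in the cytosol and imported. The small subunit reads the messenger RNA and holds the decoding site, and the large subunit forms the peptide bond. Beta cells couple glucose metabolism to insulin secretion through mitochondrial ATP production, so they depend on this machinery. A few names do not match the place of the protein: the products of Mrps18a and Mrps30 sit in the large subunit, and that of Mrps36 belongs to the alpha-ketoglutarate dehydrogenase complex.

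Ffar2 itself had 71.8, 43.9 and 46.1 CPM in KO-labelled libraries 1 to 3, against 34.1, 27.0 and 26.5 CPM in WT libraries 1 to 3, where CPM are counts scaled to library size after TMM normalization. The targeted gene was thus higher in every KO-labelled library, which goes against the label, and every direction here rests on that label. Total counts were 17067263 to 22792367 per KO-labelled library and 19352339 to 21283444 per WT library. Markers of acinar cells, the enzyme-secreting exocrine cells, differed most between libraries: all 22 of the 22 tested had a positive log2 fold change, none passed the test, and their summed level ran from 12690 to 259068 CPM in KO-labelled libraries and from 10979 to 43893 CPM in WT libraries. Beta cell markers summed to 4914 to 6340 CPM in KO-labelled and 6234 to 6544 CPM in WT libraries over 10 genes such as Pdx1 and Slc2a2, while Ins1, Ins2, Iapp and Gcg are among 15 genes that the authors' program skipped and are listed at 0 in every library. Whether each library is a pool of its own mice is not stated in the sources used here, and the p-values cover the spread among these 6 libraries alone. In bulk islets, fewer cells of a type and less RNA per cell cannot be told apart.

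Promoter sequences of RefSeq (GRCm38.p6, the assembly of mm10) are shown for 4 places that the results below return to: the gap shared by Mrps12 and its neighbour, the member with the lowest p, and the stretches before Mrps22, Mrps9 and Mrpl52, as examples of a gene with higher values in the KO label, a gene with lower values and a gene of high level. Capitals mark an exact match, on either strand, to the core letters of the ETS family (CCGGAAG, the family of GABPA) or of SP1 (GGGCGG). The Mrps12 stretch is chr7:28741822-28741967 and the Mrps22 stretch is chr9:98601680-98601779, both on the minus strand. The Mrps9 stretch is chr1:42851133-42851232 and the Mrpl52 stretch is chr14:54426809-54426908, both on the plus strand. None of the 4 overlaps an annotated exon.
Mrps12 to Sars2: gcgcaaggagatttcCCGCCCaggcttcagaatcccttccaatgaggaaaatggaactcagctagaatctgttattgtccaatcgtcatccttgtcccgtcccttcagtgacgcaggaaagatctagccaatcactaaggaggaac
Mrps22 upstream: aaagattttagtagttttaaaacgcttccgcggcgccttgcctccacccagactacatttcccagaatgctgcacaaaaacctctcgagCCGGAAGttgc
Mrps9 upstream: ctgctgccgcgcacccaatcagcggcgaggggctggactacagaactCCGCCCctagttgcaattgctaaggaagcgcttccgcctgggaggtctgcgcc
Mrpl52 upstream: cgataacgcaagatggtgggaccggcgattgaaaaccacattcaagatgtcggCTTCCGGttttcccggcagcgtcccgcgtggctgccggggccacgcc

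The letters of 4 factors known to bind promoters of nuclear genes for mitochondrial proteins, or promoters in general, were searched in windows from 250 bases before to 50 after each start site, on both strands. A total of 67 of the 76 members matched the table, with 73 windows. ETS letters (CCGGAAG) stood in 32.9% of the members' windows, against 8.86% of all 32851 windows and 15.4% of the windows of genes tested in these islets. YY1 letters (AAGATGGC) stood in 16.4% of members' windows, against 2.75% of all and 3.9% of tested-gene windows. NRF1 letters (GCGCATGC) stood in 11% of members' windows, against 2.71% of all and 4.83% of tested-gene windows. SP1 letters (GGGCGG) stood in 52.1% of members' windows, 35.7% of all windows and 60.9% of tested-gene windows. Within the family, NRF1 letters were found in 7 of 46 windows of Mrpl genes and 1 of 27 windows of Mrps genes, and ETS letters in 13 of 46 windows of Mrpl genes and 11 of 27 of Mrps genes. These counts describe letters in a window and say nothing of binding.

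As a family, the mitochondrial ribosomal protein genes had similar TMM-scaled levels under both labels. With edgeR's quasi-likelihood test, 0 of 76 members passed an adjusted p of 0.05, and 0% of all 14082 genes tested did. At an unadjusted p under 0.05 there were 6 members, against 4.69% of all genes, with 2 higher in KO-labelled islets (Mrpl19 and Mrps22; background 2.58%) and 4 lower (Mrps12, Mrps9, Mrpl48 and Mrps33; background 2.12%). DESeq2 and limma-voom each gave 6 members at that unadjusted p, against 4.91% and 4.47% of all genes. DESeq2 alone called 1 member at an adjusted p of 0.05, Mrps12, among 8 genes of the whole table (0.0568%, and 0.0426% for lower values), and limma-voom called 0. The 95% interval of the fold change lay within 2-fold in either direction for 75 of the 76 members, against 80% of all genes tested. These are not like for like, since the members lay at the 29.1 to 77.6 percentile of level among genes tested. The median standard error was 0.128 for the members and 0.165 for all genes tested, which include genes of lower counts.

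Large and small subunit genes were set side by side. The median log2 fold change was -0.01 over the 47 Mrpl genes and -0.03 over the 29 Mrps genes, beside 0.02 over all genes tested. Fold changes ran from -0.30 (Mrpl11) to 0.39 (Mrpl19) on the log2 scale for Mrpl genes, and from -0.64 (Mrps12) to 0.56 for Mrps genes, the upper end being an entry shared with another gene. Of the 6 members at an unadjusted p under 0.05, 2 were Mrpl and 4 Mrps genes. Placing Mrps18a and Mrps30 with the large subunit and leaving out Mrps36 gave medians of -0.01 and -0.02. These 3 genes were themselves close to WT, with log2 fold changes of 0.05 (standard error 0.13) for Mrps18a, -0.06 (0.13) for Mrps30 and -0.11 (0.11) for Mrps36.

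A total of 43 of 76 members had a log2 fold change below 0, against 46.7% of all genes tested. This count rested on single libraries: it was 25 without KO-labelled library 1 and 57 without KO-labelled library 3. Scaling by total count gave 66, with the median of all genes then at -0.14 on the log2 scale and the subunit medians at -0.19 for Mrpl and -0.20 for Mrps genes, so both subunits shifted together with all genes. After TMM scaling, the members' summed level was 1813, 1936 and 2036 CPM in KO-labelled libraries 1 to 3. The sums in WT libraries 1 to 3 were 1923, 2046 and 1876 CPM, and the groups overlapped. By share of all counts they did not overlap, with every KO-labelled library below every WT library.

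**Figure D1:**
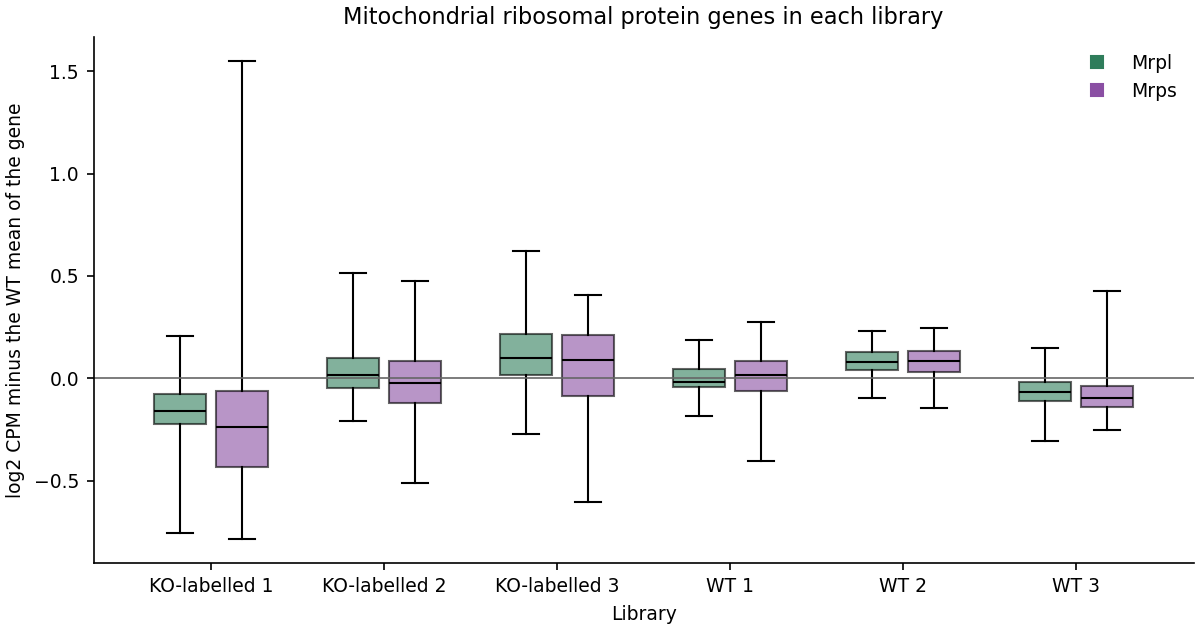
Log2 CPM of each mitochondrial ribosomal protein gene minus its WT mean, by library (x axis), with Mrpl genes in green and Mrps genes in purple; boxes span the quartiles, lines inside them are medians and whiskers reach the lowest and highest gene. KO-labelled library 1 sits lowest, with medians of -0.16 (Mrpl) and -0.24 (Mrps), and KO-labelled library 3 highest, with medians of 0.10 and 0.09.

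The members' median level differed more between libraries of 1 label than between the labels. Relative to the WT mean, the median member stood at -0.16, 0.00 and 0.10 on the log2 scale in KO-labelled libraries 1 to 3, against -0.01, 0.08 and -0.09 in WT libraries 1 to 3. In KO-labelled libraries 1 to 3, 63, 38 and 19 of 76 members were below their WT mean. In WT libraries 1 to 3 it was 41, 15 and 62. Of all 14082 genes tested, 7163, 6951 and 7032 were below it in KO-labelled libraries, and 6881, 6937 and 7226 in WT libraries. Cytosolic ribosomal protein genes (Rpl and Rps, 74 tested) had medians of -0.31, 0.04 and 0.32 in KO-labelled libraries 1 to 3, against -0.10, 0.08 and 0.02 in WT libraries 1 to 3. Genes of complex I of the respiratory chain (Nduf, 42 tested) had medians of -0.36, -0.04 and 0.04 in KO-labelled libraries, against -0.03, 0.08 and -0.07 in WT libraries. By these TMM-scaled medians, all 3 families were lowest in KO-labelled library 1, but this rested on the scaling. The members' share of all counts was 0.194%, 0.194% and 0.160% in KO-labelled libraries 1 to 3. In WT libraries 1 to 3 it was 0.205%, 0.212% and 0.201%. By share of counts, the members and Nduf genes (0.188%) were lowest in KO-labelled library 3. Rpl and Rps genes were lowest in KO-labelled library 1 (2.15%). Acinar markers made up 1.36%, 8.76% and 20.3% of all counts in KO-labelled libraries 1 to 3. Their share in WT libraries 1 to 3 was 3.89%, 4.55% and 1.18%. Summed acinar markers followed the order of the members' TMM-scaled medians within both labels. They summed to 12690, 87589 and 259068 CPM in KO-labelled libraries 1 to 3. In WT libraries 1 to 3 the sums were 36481, 43893 and 10979 CPM. The median of 8 endothelial markers, relative to the WT mean on the log2 scale, had the same order. It was -0.25, -0.09 and 0.24 in KO-labelled libraries 1 to 3, against -0.02, 0.12 and -0.08 in WT libraries 1 to 3. Summed endothelial markers kept that order in WT libraries only, at 549, 581 and 520 CPM in WT libraries 1 to 3. For KO-labelled libraries 1 to 3 the sums were 528, 521 and 686 CPM. KO-labelled library 1 was also lowest in the medians of alpha, delta and PP cell markers (-0.65), macrophage markers (-0.63) and stromal markers (-2.25). The same held for the medians of beta cell markers (-0.09) and ductal markers (-0.48). Summed ductal markers did not follow their median, at 770, 659 and 617 CPM in KO-labelled libraries 1 to 3. Their sums in WT libraries 1 to 3 were 640, 697 and 781 CPM. The part of any of these cell types in the members' levels was not tested.

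**Figure D2:**
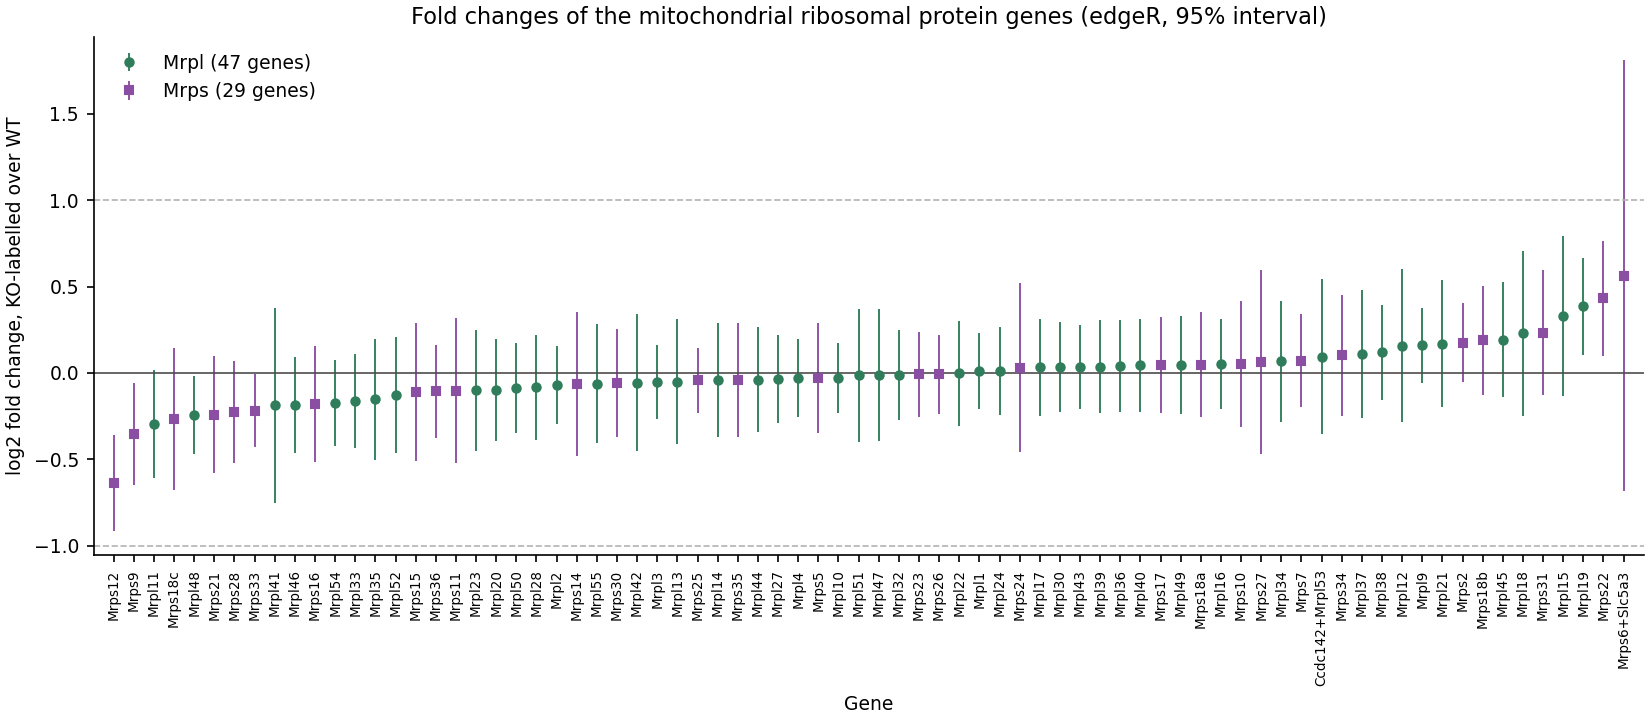
Log2 fold change of KO-labelled over WT libraries for the 76 entries with a mitochondrial ribosomal protein gene (x axis, in order of fold change), with 95% intervals from edgeR; green circles are Mrpl and purple squares Mrps genes, and dashed lines mark a 2-fold change. Mrps12 at -0.64 stands lowest, and the entry of Mrps6 and Slc5a3 at 0.56 has the widest interval.

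Mrps12, the counterpart of the bacterial protein S12 at the decoding site of the small subunit, had the lowest p of the family. Its level was 27.9, 33.8 and 31.6 CPM in KO-labelled libraries 1 to 3, against 49.9, 52.0 and 43.0 CPM in WT libraries 1 to 3. Every KO-labelled library was below every WT library, with means of 31.1 ± 2.97 CPM in KO-labelled and 48.3 ± 4.72 CPM in WT islets (SD, n = 3 each). On the log2 scale the difference was -0.64 (standard error 0.12), with a 95% interval of -0.92 to -0.36, an unadjusted p of 0.000982 and an adjusted p of 0.852 from edgeR. DESeq2 gave the same fold change with an adjusted p of 0.0308, and over all alternatives the adjusted p ran from 0.0308 to 0.999. The fold change stayed between -0.72 and -0.56 on the log2 scale when any 1 library was left out.

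Mrps12 also lies on chromosome 7, as Ffar2 does, 2.08 Mb away. In the GENCODE annotation of the same assembly it has 3 exons on the minus strand, from 28739642 to 28741820, with the coding sequence in exons 2 and 3. It is transcribed away from Sars2, the mitochondrial seryl-tRNA synthetase gene, with the 146 bases printed above between the start sites. Those bases are printed from the Sars2 end, and the letters of SP1 stand at base 16 from that end. The RefSeq window of Mrps12 also holds the letters of ETS, just past the start site, and of YY1 (as GCCATCTT) further upstream. The YY1 letters begin at base -199 from the Mrps12 start site, outside the shared gap and past the start site of Sars2. Sars2 had 8.33, 7.85 and 8.63 CPM in KO-labelled libraries 1 to 3, against 9.90, 8.81 and 7.32 CPM in WT libraries 1 to 3. The groups overlapped for Sars2, and edgeR gave a log2 fold change of -0.07 with a 95% interval of -0.45 to 0.31 and an adjusted p of 0.950.

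The other 5 members on chromosome 7 lie 48.0 to 111.7 Mb from Ffar2. Mrpl48, a protein found in mitochondrial but not bacterial ribosomes, had 31.9, 37.1 and 35.1 CPM in KO-labelled libraries, against 42.7, 39.7 and 40.9 CPM in WT libraries, with no overlap (log2 fold change -0.24, standard error 0.10, unadjusted p = 0.0382 and adjusted p = 0.852 from edgeR). Mrps11 and Mrpl46 have the same arrangement, with 41 bases between them. Mrpl46, another protein particular to mitochondrial ribosomes, had 13.5, 14.1 and 15.6 CPM in KO-labelled libraries, against 15.9, 17.4 and 15.5 CPM in WT libraries, with a narrow overlap. Mrps11, the S11 counterpart, had 11.1, 15.2 and 16.9 CPM in KO-labelled libraries, against 15.6, 16.7 and 14.0 CPM in WT libraries, and the groups overlapped.

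Mrpl23, the L23 counterpart near the exit of the peptide tunnel, had 18.6, 23.9 and 26.1 CPM in KO-labelled libraries, against 24.0, 26.7 and 22.8 CPM in WT libraries. Mrpl17, the L17 counterpart, had 56.1, 57.6 and 69.6 CPM in KO-labelled libraries, against 58.9, 65.1 and 55.2 CPM in WT libraries. Both overlapped, with log2 fold changes of -0.10 (standard error 0.15) and 0.03 (0.12). The direction of Mrpl23 and of Mrps11 (-0.10, standard error 0.18) turned without KO-labelled library 1, to 0.03 and 0.06. Over the 6 members of chromosome 7 the median log2 fold change was -0.14, and over the other 70 it was -0.01. The median of the 6 was -0.06 without KO-labelled library 1, -0.24 without KO-labelled library 3 and -0.09 without WT library 2, beside 0.06, -0.06 and 0.02 over the other 70.

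Of the 17 Mrps genes with a log2 fold change below 0, those of lowest p after Mrps12 were Mrps9, Mrps33, Mrps28 and Mrps21, of which Mrps28 and Mrps21 were not at an unadjusted p under 0.05. Mrps9, the S9 counterpart, had 15.3, 17.9 and 15.6 CPM in KO-labelled libraries, against 18.6, 21.1 and 22.7 CPM in WT libraries, and the groups did not overlap (log2 fold change -0.35, standard error 0.13, adjusted p = 0.852 from edgeR). Mrps33, a protein with no bacterial counterpart, had 60.0, 68.6 and 64.3 CPM in KO-labelled libraries, against 72.2, 76.3 and 76.0 CPM in WT libraries. Its groups did not overlap either, at a log2 fold change of -0.22 with a standard error of 0.09 and an adjusted p of 0.852 in edgeR. Mrps28 had 22.3, 26.3 and 29.1 CPM in KO-labelled libraries, against 30.0, 32.5 and 28.3 CPM in WT libraries. Mrps21, the S21 counterpart, had 20.03, 26.9 and 27.5 CPM in KO-labelled libraries, against 30.2, 30.6 and 27.0 CPM in WT libraries. In both of these the groups overlapped and KO-labelled library 1 was lowest, with log2 fold changes of -0.23 (standard error 0.13) and -0.24 (0.14).

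Of the 26 Mrpl genes with a log2 fold change below 0, those of lowest p after Mrpl48 were Mrpl11 and Mrpl54, neither of them at an unadjusted p under 0.05. Mrpl11, the L11 counterpart at the site where translation factors bind, had 17.6, 23.3 and 22.2 CPM in KO-labelled libraries, against 24.3, 27.8 and 25.3 CPM in WT libraries. The groups did not overlap, and the log2 fold change of -0.30 (standard error 0.13) had an unadjusted p of 0.0619 from edgeR. Mrpl54, particular to mitochondrial ribosomes, had 26.0, 27.6 and 24.3 CPM in KO-labelled libraries, against 28.8, 32.0 and 27.2 CPM in WT libraries, with a narrow overlap.

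Among genes with a log2 fold change above 0, Mrpl19 and Mrps22 had the lowest p. Mrpl19, the counterpart of L19, which lies at the interface of the subunits in bacteria, had 17.3, 21.4 and 20.01 CPM in KO-labelled libraries, against 14.97, 14.90 and 15.02 CPM in WT libraries. Mrps22, a small subunit protein whose gene is mutated in some human combined deficiencies of oxidative phosphorylation, had 10.1, 10.5 and 10.0 CPM in KO-labelled libraries, against 8.14, 7.74 and 6.74 CPM in WT libraries. Neither gene's groups overlapped. The log2 fold changes were 0.39 (standard error 0.12) for Mrpl19 and 0.43 (0.14) for Mrps22, with unadjusted p of 0.0137 and 0.0181 and an adjusted p of 0.852 for both from edgeR.

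Mrps2, Mrpl9 and Mrpl45 also had every KO-labelled library above every WT library, by smaller margins. Mrps2, the S2 counterpart, had 30.1, 29.2 and 26.2 CPM in KO-labelled libraries, against 25.8, 24.7 and 25.2 CPM in WT libraries. Mrpl9, the L9 counterpart, had 36.0, 40.5 and 38.7 CPM in KO-labelled libraries, against 33.4, 34.2 and 35.6 CPM in WT libraries. Mrpl45, which helps to attach the ribosome to the inner membrane, had 10.3, 10.8 and 12.8 CPM in KO-labelled libraries, against 10.2, 10.2 and 9.34 CPM in WT libraries. Their log2 fold changes were 0.18, 0.16 and 0.19, each with an interval that included 0. In all, 5 members lay wholly above WT, against 5.36% of all genes tested, and 5 wholly below (Mrpl11, Mrpl48, Mrps12, Mrps33 and Mrps9), against 5.84%. The 10 together compare with 11.2% of all genes tested.

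**Figure D3:**
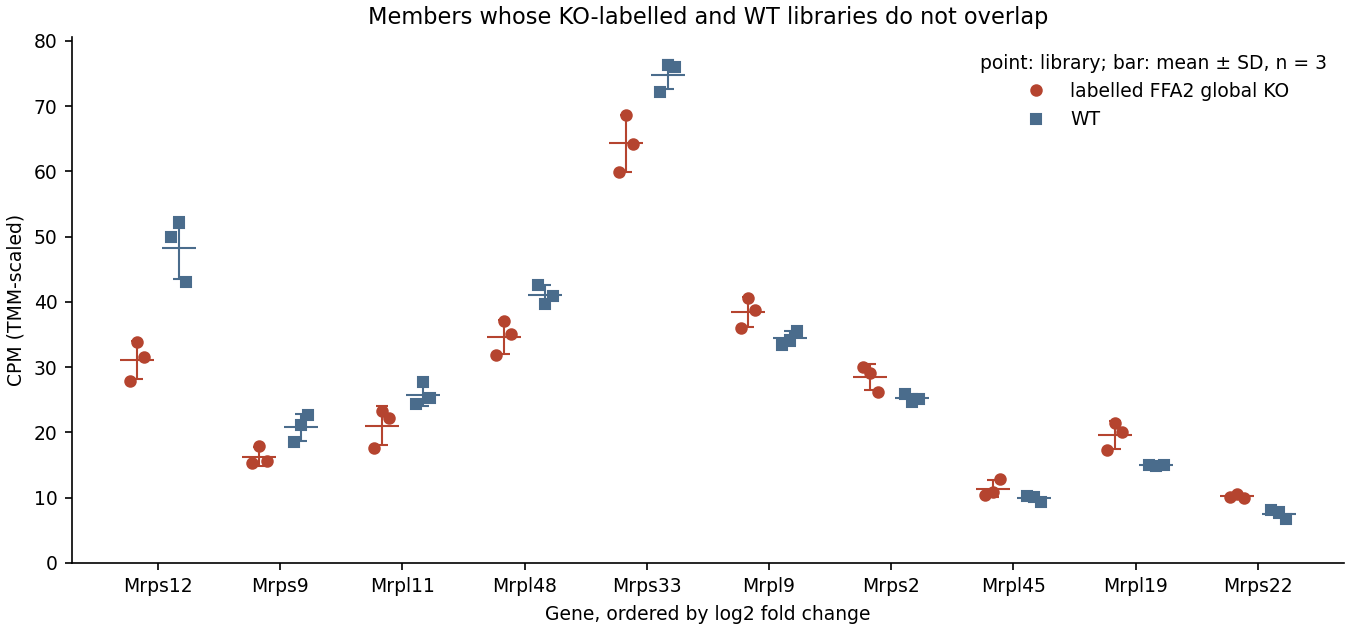
CPM of the 10 members whose KO-labelled libraries (red circles, left of each pair) and WT libraries (blue squares) do not overlap, ordered by log2 fold change; each point is a library and bars are the mean ± SD of 3 libraries. The gap is widest for Mrps12, with means of 31.1 CPM in KO-labelled and 48.3 CPM in WT libraries.

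Mrpl15, Mrps31 and Mrps18b completed the genes of lowest p with higher values, and all 3 overlapped. Mrpl15, the L15 counterpart, had 14.3, 18.9 and 22.6 CPM in KO-labelled libraries, against 16.7, 15.05 and 12.5 CPM in WT libraries. Mrps31, known as the islet autoantigen Imogen 38, had 14.7, 15.99 and 16.9 CPM in KO-labelled libraries, against 16.2, 12.0 and 12.2 CPM in WT libraries. Mrps18b, a version of S18 for the small subunit, had 34.0, 27.4 and 35.2 CPM in KO-labelled libraries, against 29.9, 29.9 and 24.98 CPM in WT libraries. Their log2 fold changes were 0.33 (standard error 0.20), 0.23 (0.15) and 0.19 (0.13).

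The 6 members at an unadjusted p under 0.05 kept their direction in every alternative run. Their number did not stay the same: it was 3 without WT library 2 and 2 without WT library 3. With the total count as scaling, 0 members were higher and 6 lower at such a p: Mrpl19, Mrps22 and Mrps33 were no longer among them, and Mrpl11, Mrps21 and Mrps28 were.

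**Figure D4:**
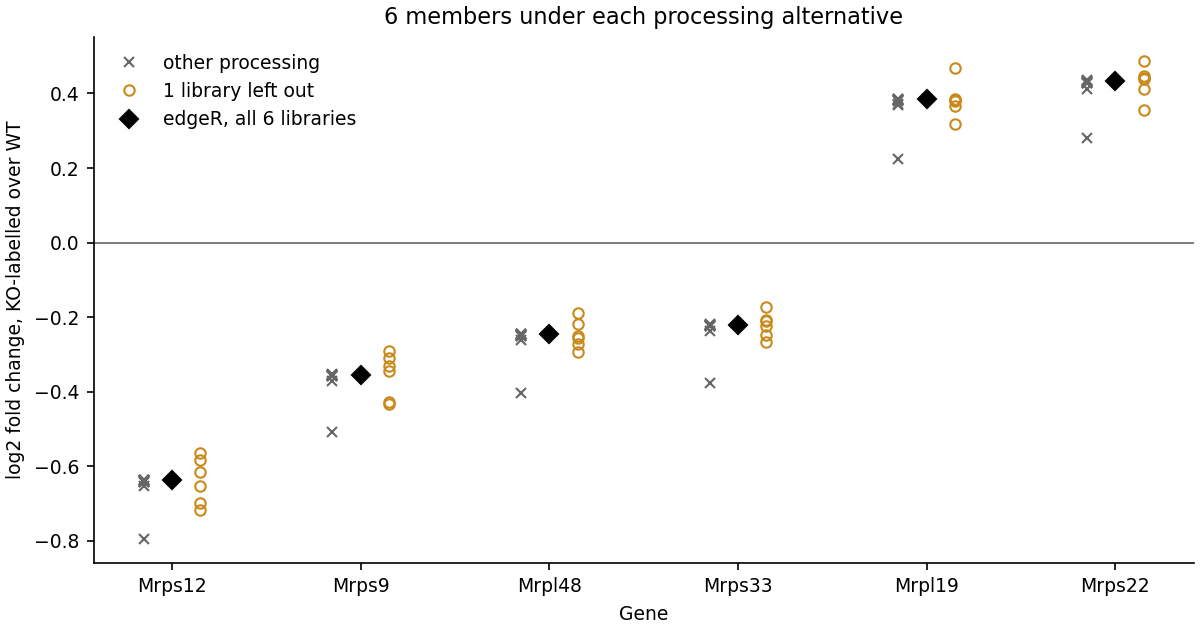
Log2 fold change (y axis) of the 6 members at an unadjusted p under 0.05, for edgeR on all 6 libraries (black diamonds), other processing (grey crosses) and 1 library left out (open circles). Mrps12 lies between -0.79 and -0.56 throughout, and none of the 6 crosses 0. The 6 were picked by p in these same libraries and have groups that do not overlap.

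Members that share an entry with another gene cannot be read alone. The entry of Mrps6, the S6 counterpart, is counted with Slc5a3, a myo-inositol transporter induced by osmotic stress in kidney cells. It had 149, 45.3 and 36.2 CPM in KO-labelled libraries 1 to 3, against 38.3, 49.98 and 68.2 CPM in WT libraries 1 to 3. KO-labelled library 1 stood far above the other 5, and the log2 fold change of 0.56 (standard error 0.53, 95% interval -0.68 to 1.81) became -0.36 without it. The entry of Mrpl53 and Ccdc142 had 15.9, 22.4 and 22.5 CPM in KO-labelled libraries, against 21.0, 20.8 and 15.2 CPM in WT libraries, with overlap and a log2 fold change of 0.09 (standard error 0.19).

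The other 52 members, 34 Mrpl and 18 Mrps genes, had log2 fold changes from -0.27 to 0.23 with a median of -0.01. Their mean levels ran from 8.25 to 56.1 CPM in KO-labelled and from 8.31 to 57.2 CPM in WT islets. In 0 of the 52 were the groups apart, and the lowest unadjusted p was 0.167 from edgeR.

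Levels of different genes were compared per length, with the RPKM that the authors pooled per genotype, which carry no replicate error. The median member was at 17.3 RPKM in KO-labelled and 17.6 RPKM in WT islets, with Mrpl genes at 17.2 and 16.9 RPKM and Mrps genes at 19.6 and 19.1 RPKM in KO-labelled and WT islets. Mrps21 was highest under both labels, at 75.8 RPKM in KO-labelled and 90.4 RPKM in WT islets. Mrpl52, particular to mitochondrial ribosomes, was at 65.0 RPKM in KO-labelled and 70.3 RPKM in WT islets, and Mrps33 at 54.5 and 64.9 RPKM. Mrps12 ranked 5 of 76 in KO-labelled islets, at 45.9 RPKM, and 2 of 76 in WT islets, at 70.7 RPKM. The lowest were Mrpl35, the L35 counterpart, at 2.61 RPKM in KO-labelled and 2.96 RPKM in WT islets, Mrpl19 at 2.99 and 2.31 RPKM, and Mrpl45 at 3.71 and 3.25 RPKM. Per library, Mrpl52 had 17.1, 22.4 and 22.9 CPM in KO-labelled libraries, against 22.4, 24.5 and 21.1 CPM in WT libraries. Mrpl35 had 10.8, 12.5 and 13.4 CPM in KO-labelled libraries, against 14.2, 14.8 and 11.8 CPM in WT libraries, and both genes overlapped between the labels.

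Other genes, grouped here under mitochondrial translation, were taken from 5 lists, with 73 genes tested. The lists hold ribosome proteins with other names, translation factors, assembly factors, aminoacyl-tRNA synthetases and regulators of mitochondrial gene expression. The 13 regulators tested had a median log2 fold change of 0.08. In edgeR 0 passed an adjusted p of 0.05, and 3 were at an unadjusted p under 0.05, against 4.69% of all genes tested, which is a number near the background. All 3 had higher values in KO-labelled islets (background 2.58%), and the median log2 fold change of the 73 was 0.05. Of the 73, 23 had a log2 fold change below 0, against 46.7% of all genes tested. The groups of 7 lay wholly above WT and of 0 wholly below, against 5.36% and 5.84% of all genes tested. The 3 genes at an unadjusted p under 0.05 in edgeR were Ftsj2, Pprc1 and Myc. Ftsj2 is an assembly factor that methylates mitochondrial ribosomal RNA, and Pprc1 is a coactivator related to PGC-1. Myc is a transcription factor that drives growth and ribosome production. Pprc1 and Myc came from the list of regulators and are not themselves proteins of mitochondrial translation. Ftsj2 had 6.48, 5.33 and 5.41 CPM in KO-labelled libraries, against 4.18, 3.53 and 4.04 CPM in WT libraries, with no overlap (log2 fold change 0.55, standard error 0.18, adjusted p = 0.852 from edgeR). Pprc1 had 42.7, 32.7 and 42.0 CPM in KO-labelled libraries, against 26.0, 32.5 and 31.3 CPM in WT libraries, with a narrow gap between KO-labelled library 2 and WT library 2. Myc had 22.3, 20.9 and 16.7 CPM in KO-labelled libraries, against 16.8, 15.3 and 14.8 CPM in WT libraries, and the groups overlapped. The log2 fold changes were 0.39 (standard error 0.14) for Pprc1 and 0.36 (0.14) for Myc.

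In the lists of other ribosome proteins, translation factors and synthetases, 0 genes were at an unadjusted p under 0.05, against 4.69% of all genes tested. The 8 mitochondrial ribosome proteins with other names had a median log2 fold change of -0.02, with Ptcd3 at 0.16 (standard error 0.11) and Chchd1 at -0.11 (0.15). The 14 translation factors had a median of 0.01, with the release factor gene Mtrf1l at 0.37 (0.16) and Taco1, an activator of cytochrome oxidase subunit translation, at 0.49 (0.21). The 17 aminoacyl-tRNA synthetases had a median of 0.11, with Mars2 at 0.37 (0.19) and Aars2 at 0.26 (0.15). Among the 21 assembly factors, which include Ftsj2 and had a median of 0.05, Rnmtl1, a methyltransferase of mitochondrial ribosomal RNA, stood at 0.35 (0.18).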

How the data were processed

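Islet RNA-seq of 6 libraries was used, 3 labelled FFA2 global KO and 3 WT, with groups taken from the sample labels. The authors aligned reads with TopHat2 2.0.8b to mm10 and ran Cufflinks and Cuffdiff 2.1.1. They deposited estimated counts per gene and library, and RPKM pooled per genotype. Their table also holds their own fold changes and p-values, which were not used. How reads were counted, and whether strand was used, is not given in the sources used here. Genes that overlap or have near-identical copies could therefore share reads. Counts were rounded. Left out were 158 names with several values and 15 genes that the caller skipped, none of them a member, which left 22750 genes. The filter filterByExpr (minimum count 10, minimum total 15) kept 14082.

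Genes were tested with edgeR 4.0.16 under R 4.3.3 (TMM, glmQLFit and glmQLFTest with genotype as the only term, both sides), adjusting by Benjamini-Hochberg over all genes tested at a threshold of 0.05. The biological coefficient of variation was 21.5%. Log CPM used a prior count of 2. The fit was tested on simulated data. Alternatives were other scalings (total count, upper quartile, RLE), other filters, DESeq2 1.42.0, limma-voom (limma 3.58.1), a replicate block, leaving out each library, an adjusted p of 0.1, and names or skipped genes put back. Subunits by place of the protein, and the chromosome 7 medians under each alternative, were added after seeing the data. Members and lists were chosen with earlier results of these data known. Named are the 8 members of lowest p in each direction, those on chromosome 7, the 3 highest and 3 lowest per length, shared entries, up to 2 genes of lowest p per other list, and Sars2. Markers, Nduf, Rpl and Rps genes are given as sums or medians. Mrps18a, Mrps30 and Mrps36 are named for their place, and Ffar2 as the targeted gene. All library pairs differed beyond sampling noise (lowest chi-square per gene 27.6). Start sites, windows and motifs are from RefSeq, and exons from GENCODE M21.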

Additional observations from a re-analysis of the deposited data

How the results depend on the processing

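The number of members past an adjusted p of 0.05 was 0 in edgeR and under each alternative except DESeq2, which gave 1, Mrps12 (log2 fold change -0.64, adjusted p = 0.0308). Each fit with a library left out gave 0. There were 2 to 6 members at an unadjusted p under 0.05 when 1 library was left out. The other genes of mitochondrial translation at that p were 1 with total-count scaling, 5 with limma-voom and 1 to 6 when 1 library was left out. With total-count scaling the medians were -0.19 for Mrpl and -0.20 for Mrps genes, beside -0.14 for all genes tested. With a library left out they ran from -0.06 to 0.04 for Mrpl and from -0.12 to 0.06 for Mrps genes. The Mrpl17 fold change reversed to -0.14 with total-count scaling and ran from -0.074 to 0.095 with a library left out. Mrpl23 ran from -0.21 to 0.030 and Mrps11 from -0.24 to 0.056. Beyond scaling and fewer samples, the cause of these changes was not tested. Deviations of same-numbered libraries had correlations of 0.11, -0.14 and -0.34, and those of differently numbered libraries ran from -0.50 to 0.59. With 3 libraries per label, such correlations cannot decide whether the numbers pair the libraries. With the replicate block, 0 members passed an adjusted p of 0.05, 4 were at an unadjusted p under 0.05, the medians were -0.02 (Mrpl) and -0.03 (Mrps), the Mrps12 log2 fold change was -0.64, and 2 other genes of mitochondrial translation were at that p.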
